A study of Mus musculus with 10 samples.

Results

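The 10 genes described here encode small leucine-rich proteoglycans (Dcn, Lum, Ogn and Fmod), fibrillar collagen chains (Col1a1, Col1a2 and Col3a1) and further proteins found in the fibroblasts of the meninges (Igf2, Islr and Slc22a6). They were chosen by name, and every array probeset annotated with 1 of these symbols was taken. Each gene had 1 probeset, 0 of the 10 probesets were shared with another symbol, and all 10 were tested among the 23410 probesets that carried at least 1 symbol.

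The brains of 5 mice that received Aldara cream on the skin and of 5 that received an aqueous control cream were perfused, and whole-brain expression was measured with 1 array per mouse. All mice were C57BL/6 females aged 6 to 8 weeks, and all were shaved on the back. The cream was applied 5 times, 80 mg at intervals of 24 h, and brains were removed 24 h after the final dose. Aldara holds 5% imiquimod, a ligand of TLR7 and TLR8. Its vehicle also contains isostearic acid, which the aqueous cream lacks, so the groups differ in the whole cream and not in imiquimod alone. Whether the meninges were kept on the brain was not given in the sources used here.

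The meninges are the membranes around the brain, and the inner layers, the pia and the arachnoid, are built by fibroblasts that also follow penetrating blood vessels. These cells secrete fibrillar collagens, whose chains wind into triple helices and assemble into fibrils outside the cell. Small leucine-rich proteoglycans coat the fibrils, and set their thickness and spacing. Fibroblasts of the arachnoid and pia also carry transporters that move solutes between cerebrospinal fluid and blood, and they secrete growth factors into the fluid. In whole brain they are a small part of the cells.

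The label of the set was checked with 30 other genes that mark leptomeningeal fibroblasts and barrier cells. All 30 had a probeset, and their mean log2 value lay between 8.01 and 8.13 on the Aldara arrays and between 7.84 and 8.04 on the control arrays. Normalised values do not show which probesets exceeded background, and no marker can read 0 on this scale. The median log2 value of all tested probesets lay between 8.16 and 8.19 on the Aldara arrays and between 8.10 and 8.14 on the control arrays. Some arrays were low for most meningeal genes. Control replicate 1 lay below the mean of its own group for 28 of the 30 markers and for 9 of the 10 genes, by 0.12 and 0.17 on average on the log2 scale. Control replicate 2 did so for 27 of the 30 markers and 8 of the 10 genes, by 0.08 and 0.05 on average, and Aldara replicate 2 for 24 of the 30 markers and 8 of the 10 genes, by 0.08 and 0.10 on average.

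Promoter sequence is shown for Ogn and Fmod, which of all pairs of the 10 genes varied together most closely over the arrays, and for Col1a2, a chain of type I collagen. Sequences are those of RefSeq on the GRCm38.p6 build, each with 250 bases before and 50 bases from the start site on, and the table used held windows for 7 of the 10 genes. Capitals mark the letters CCAAT or TATAA on either strand (ATTGG and TTATA on the printed strand for the reverse), with positions counted from the start site as 1. The window of Ogn lies at chr13:49607765-49608064 on the plus strand, that of Fmod at chr1:134037004-134037303 on the plus strand and that of Col1a2 at chr6:4505368-4505667 on the plus strand.
Ogn: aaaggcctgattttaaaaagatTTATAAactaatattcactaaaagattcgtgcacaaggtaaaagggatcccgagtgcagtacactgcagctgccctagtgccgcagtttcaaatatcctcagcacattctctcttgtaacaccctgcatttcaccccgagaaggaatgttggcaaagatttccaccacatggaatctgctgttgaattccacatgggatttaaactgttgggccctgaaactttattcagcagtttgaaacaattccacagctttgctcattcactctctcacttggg
Fmod: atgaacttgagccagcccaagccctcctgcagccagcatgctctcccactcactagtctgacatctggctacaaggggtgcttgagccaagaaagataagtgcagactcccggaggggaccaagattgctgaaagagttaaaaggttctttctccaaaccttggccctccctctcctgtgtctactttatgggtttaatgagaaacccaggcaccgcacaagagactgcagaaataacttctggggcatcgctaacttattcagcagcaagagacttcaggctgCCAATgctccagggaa
Col1a2: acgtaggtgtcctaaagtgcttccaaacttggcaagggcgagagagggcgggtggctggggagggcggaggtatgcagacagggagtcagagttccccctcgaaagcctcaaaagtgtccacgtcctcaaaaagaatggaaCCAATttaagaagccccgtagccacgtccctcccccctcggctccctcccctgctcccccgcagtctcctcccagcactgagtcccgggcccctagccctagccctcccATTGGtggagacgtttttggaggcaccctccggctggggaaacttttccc
The Ogn window held TATAA on both strands in 1 overlapping stretch at -228 and -227, and no CCAAT. The Fmod window held CCAAT at 35, and the Col1a2 window held it at -109 and, reversed, at 1. Over the 10 windows of the 7 genes, 4 of which belong to Igf2, CCAAT was found for 4 genes and TATAA for 3. Counted by window and not by gene, 37.4% of all 32851 windows of this length held CCAAT and 24.9% held TATAA. These are matches of letters and not sites of binding.

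Decorin, lumican and Islr rose after Aldara treatment, and the collagen chains did not pass the test in either direction. At an adjusted p under 0.05 from limma, 3 of the 10 genes were higher and 0 were lower, against 12.4% of all tested probesets higher and 21% lower. The median difference over the 10 genes was 0.02 on the log2 scale, and that over all tested probesets was -0.04. Of the 7 genes that were not called, Col1a1 and Fmod had an unadjusted p under 0.05, and both were on the lower side. In bulk brain, more cells of a type and more RNA per cell cannot be told apart.

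**Figure D1:**
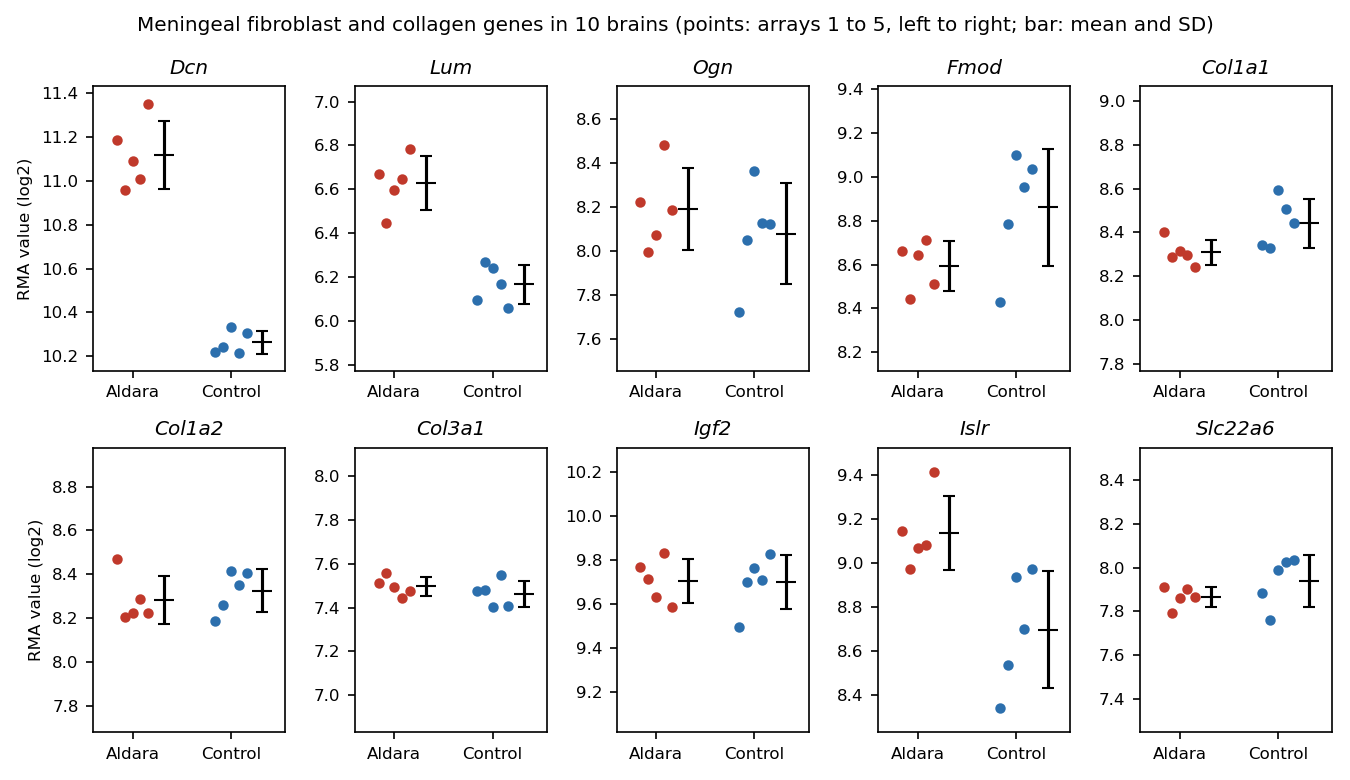
Normalised log2 value (vertical axis) of the 10 genes on each array, with Aldara-treated mice in red on the left and control mice in blue on the right of each panel; points are arrays 1 to 5 from left to right, bars are mean and SD, and every vertical axis spans the same number of log2 units. The groups do not overlap for Dcn, Lum and Islr, and for Islr the gap is 0.00178.

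Dcn encodes decorin, a proteoglycan that binds collagen fibrils and holds transforming growth factor beta in the matrix. Its probeset read 11.19, 10.96, 11.09, 11.01 and 11.35 in Aldara replicates 1 to 5, against 10.22, 10.24, 10.33, 10.22 and 10.31 in control replicates 1 to 5. All 5 Aldara arrays stood above all 5 control arrays, with a gap of 0.63 between the groups, and Aldara replicate 5 was the highest. The means were 11.12 ± 0.155 in Aldara-treated mice and 10.26 ± 0.0532 in control mice (SD, n = 5 each), a difference of 0.86 on the log2 scale (standard error 0.064, 95% interval 0.72 to 1.00) or 1.81-fold, with an adjusted p of 1.06e-06 from limma. The exact two-sided permutation test gave 0.0079, the smallest p that 252 splits of the arrays allow. Groups without overlap were found for 10.5% of all tested probesets with Aldara higher and for 15.3% with Aldara lower.

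Lum encodes lumican, a keratan sulphate proteoglycan best known for the regular fibril spacing of the cornea. It read 6.67, 6.45, 6.60, 6.65 and 6.78 in Aldara replicates 1 to 5, against 6.10, 6.27, 6.24, 6.17 and 6.06 in control replicates 1 to 5. The groups did not overlap, and Aldara replicate 5 was again the highest array and Aldara replicate 2 the lowest of its group. The means were 6.63 ± 0.122 in Aldara-treated mice and 6.17 ± 0.0891 in control mice (SD, n = 5 each). The difference was 0.46 (standard error 0.060, 95% interval 0.33 to 0.59), or 1.38-fold, with an adjusted p of 0.000107 from limma.

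The other pair of proteoglycans in the set did not pass the test. Ogn encodes osteoglycin, also called mimecan, and read 8.22, 7.99, 8.07, 8.48 and 8.19 in Aldara replicates 1 to 5, against 7.72, 8.05, 8.36, 8.13 and 8.12 in control replicates 1 to 5. Aldara replicate 4 was the highest and control replicate 1 the lowest of all arrays, and the others overlapped, with a difference of 0.11 (95% interval -0.13 to 0.36, adjusted p = 0.468 from limma). Aldara replicate 4 also had the highest mean over 9 pituitary markers, 7.09. That mean was 6.60 to 6.87 on the other Aldara arrays and 6.70 to 6.95 on the control arrays. Without Aldara replicate 4 the difference of Ogn was 0.04 (adjusted p = 0.805 from limma). With group means removed, the r of Ogn with the pituitary mean was 0.30 (adjusted exact permutation p = 0.786). Fmod encodes fibromodulin, which takes part in fibril assembly and cross-linking. It read 8.66, 8.44, 8.64, 8.71 and 8.51 in Aldara replicates 1 to 5, against 8.43, 8.78, 9.10, 8.95 and 9.04 in control replicates 1 to 5. Of the control arrays, 4 stood above every Aldara array, and control replicate 1 stood below them all. The difference was -0.27 (95% interval -0.51 to -0.03, adjusted p = 0.0836 from limma), and without control replicate 1 it was -0.37 (adjusted p = 0.00263).

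The proteoglycans thus differed in their measured change, which was tested within arrays. In control mice Dcn averaged 10.26 and Lum 6.17, and whether the level affects the size of a measured change was not tested. The log2 difference between decorin and lumican widened by 0.39 in Aldara-treated mice relative to control mice, that between decorin and osteoglycin by 0.74 and that between decorin and fibromodulin by 1.12 (exact permutation tests, each adjusted p = 0.017 over the 45 pairs of genes). The change of osteoglycin exceeded that of fibromodulin by 0.38 (exact permutation test, adjusted p = 0.017), although neither passed the test on its own. Lumican and Islr differed in their change by 0.02 (exact permutation p = 0.865).

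The fibrillar collagens are shown by the chains of type I and type III collagen, the main fibrils of soft connective tissue. Col1a1 read 8.40, 8.29, 8.31, 8.30 and 8.24 in Aldara replicates 1 to 5, against 8.34, 8.33, 8.59, 8.51 and 8.44 in control replicates 1 to 5. Thus 4 of the 5 Aldara arrays lay below the lowest control array, and Aldara replicate 1 lay within the control range. The difference was -0.13 (standard error 0.051, 95% interval -0.25 to -0.02, adjusted p = 0.065 from limma), with an exact permutation p of 0.048. This value lay close to the threshold, and it passed when Aldara replicate 1, control replicate 1 or control replicate 2 was left out (adjusted p = 0.0462, 0.0423 and 0.0313) and when arrays were brought to the same median (-0.18, adjusted p = 0.00967) or quantile-normalised again (-0.16, adjusted p = 0.0232), but was further from passing with the median difference set to 0 (-0.09, adjusted p = 0.22).

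Col1a2, the partner chain of type I collagen, read 8.47, 8.20, 8.23, 8.29 and 8.22 in Aldara replicates 1 to 5, against 8.19, 8.26, 8.42, 8.35 and 8.41 in control replicates 1 to 5. Aldara replicate 1 was the highest of all arrays and control replicate 1 the lowest, and the difference was -0.04 (95% interval -0.17 to 0.08, adjusted p = 0.608 from limma). The change of Col1a1 and that of Col1a2 differed by -0.09 within arrays (exact permutation test, adjusted p = 0.0985). Col3a1, the chain of type III collagen, ranged from 7.44 to 7.56 in Aldara-treated mice and from 7.40 to 7.55 in control mice. Its difference of 0.03 had the narrowest 95% interval of the 10 genes, -0.04 to 0.11, and its spread within groups was lower than that of most probesets (percentile 31.2).

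**Figure D2:**
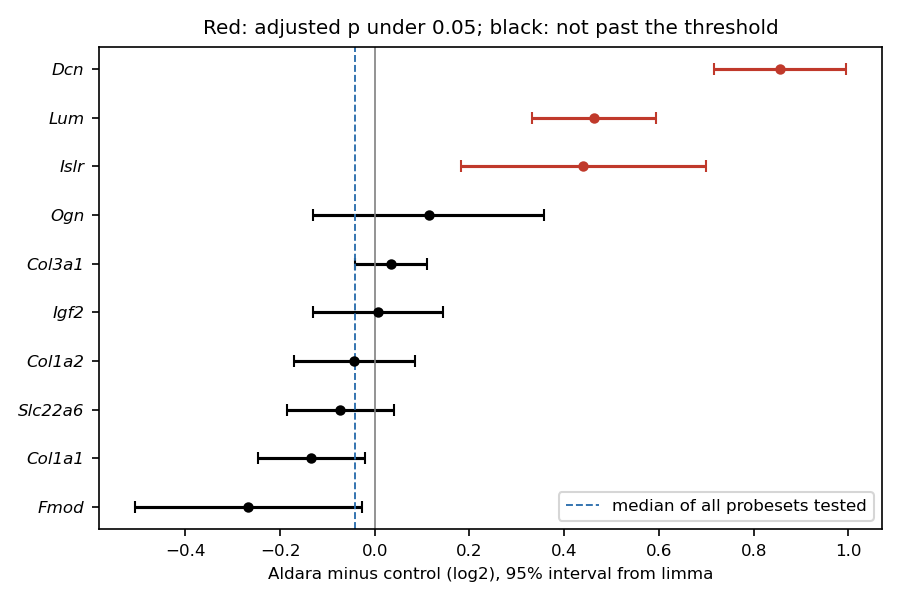
Difference in mean log2 value, Aldara minus control (horizontal axis), for each of the 10 genes with its 95% interval from limma; red marks an adjusted p under 0.05 and black the others, and the dashed line is the median of all tested probesets, -0.04. Dcn, Lum and Islr lie to the right of 0, and the intervals of Fmod and Col1a1 lie to the left of 0 without passing after adjustment.

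Islr encodes meflin, a membrane-anchored protein with leucine-rich repeats and an immunoglobulin domain that is found on mesenchymal stromal cells. It read 9.15, 8.98, 9.07, 9.08 and 9.42 in Aldara replicates 1 to 5, against 8.34, 8.54, 8.94, 8.70 and 8.97 in control replicates 1 to 5. The lowest Aldara array and the highest control array differed by 0.00178. The means were 9.14 ± 0.167 in Aldara-treated mice and 8.70 ± 0.268 in control mice (SD, n = 5 each), a difference of 0.44 (standard error 0.12, 95% interval 0.18 to 0.70) or 1.36-fold, with an adjusted p of 0.0131 from limma. Islr spread more within groups than 98.6% of all tested probesets. With the mean of the 30 leptomeningeal markers as a covariate, the difference was 0.12 and no longer passed (adjusted p = 0.412 from limma). Those of Dcn and Lum still passed. Of those markers 9 rose between groups and 0 fell, so this covariate carries part of the group difference. With the covariate centred within groups, Dcn, Lum and Islr all stayed higher.

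Igf2 encodes insulin-like growth factor 2, which in the adult brain is made mainly by the leptomeninges and the choroid plexus. It read 9.77, 9.71, 9.63, 9.83 and 9.58 in Aldara replicates 1 to 5, against 9.50, 9.70, 9.77, 9.71 and 9.83 in control replicates 1 to 5. The groups covered nearly the same range, and the difference was 0.01 (95% interval -0.13 to 0.14, adjusted p = 0.946 from limma), and it was negative without Aldara replicate 1 (-0.00851), Aldara replicate 4 (-0.02443) or control replicate 1 (-0.04372). Slc22a6 encodes the organic anion transporter OAT1, best known from the kidney and also present in the leptomeninges. It ranged from 7.79 to 7.91 in Aldara-treated mice and from 7.76 to 8.04 in control mice, a difference of -0.07 (95% interval -0.18 to 0.04, adjusted p = 0.306 from limma). Without control replicate 2, the lowest control array, it was -0.12 (adjusted p = 0.043).

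Variation from mouse to mouse within the groups was compared between the 10 genes. For this, the mean of its own group was subtracted from each value, and the deviations were compared over the 10 arrays. Over the 45 pairs of genes, the median Pearson correlation was 0.44, with a range of -0.54 to 0.86, and 33 pairs were above 0. Between the 10 genes and all other probesets with 1 symbol, the median was -0.01 and the quartiles were -0.28 and 0.27. The points share arrays and normalisation, and the deviations of arrays of 1 group sum to 0.

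Ogn, Fmod, Col1a1, Col1a2, Igf2 and Slc22a6 formed a set in which every pair correlated above 0. This grouping was made after the values were seen, and its 15 pairs had correlations of 0.44 to 0.86 with a median of 0.70. Without the 2 arrays farthest from the median of the first gene, they ranged from 0.15 (Ogn with Igf2, 0.76 over all arrays) to 0.84. Islr also correlated above 0 with all 6 genes, at 0.43 to 0.72. Control replicate 1 was below its group mean in all 6 of these genes, most of all in Fmod (-0.43), Ogn (-0.35) and Igf2 (-0.20), and control replicate 3 was above it in all 6. Ogn and Fmod, whose promoters are printed here, varied together most closely, with a Pearson r of 0.86 (exact permutation p = 0.00111, adjusted p = 0.0375 over the 45 pairs) and a Spearman rho of 0.89 (exact permutation p = 0.0016, adjusted p = 0.0594). Without the 2 arrays farthest from the median of Ogn, r was 0.71. The 2 chains of type I collagen had an r of 0.80 (exact permutation p = 0.0105, adjusted p = 0.108) and a rho of 0.87 (exact permutation p = 0.00639, adjusted p = 0.0606), and r was 0.84 without the 2 farthest arrays.

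**Figure D3:**
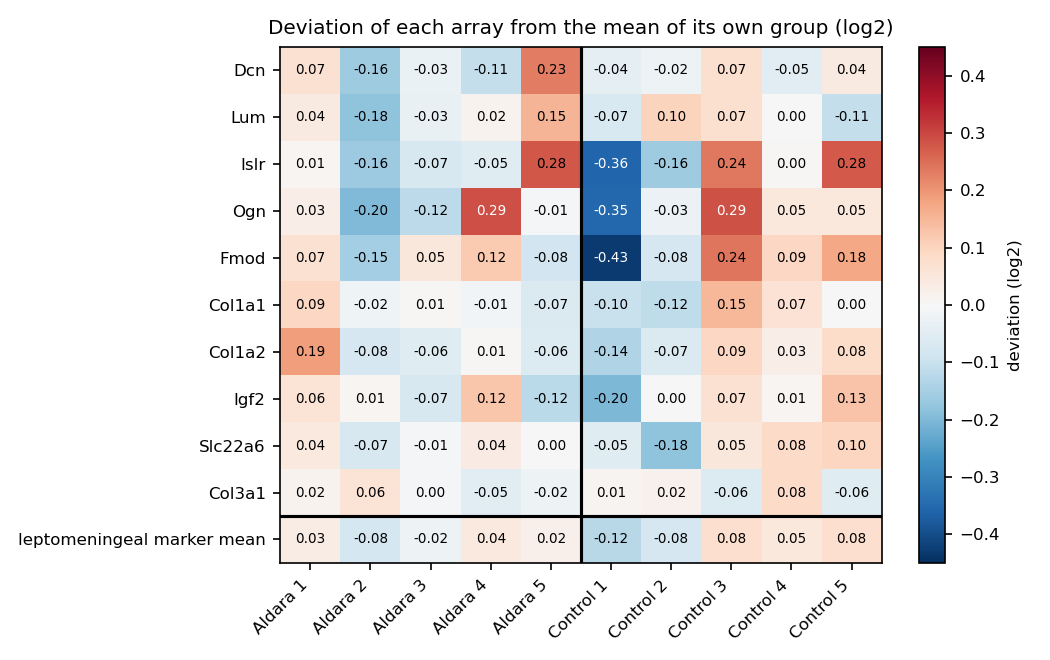
Deviation of each array (columns, Aldara left of control) from the mean of its own group in log2 units, for the 10 genes (rows) and, in the bottom row, for the mean of the 30 leptomeningeal markers; red is above and blue below the group mean. Control replicate 1 is below its group mean in 9 of the 10 genes, and the row of Col3a1 correlates below 0 with each of the others.

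Dcn, Lum and Col3a1 were less related to those 6 genes over all arrays. The 12 correlations of Dcn or Lum with them had a median of 0.18, but without the 2 farthest arrays that of Dcn with Col1a2 was 0.75 (0.29 over all arrays) and that of Dcn with Col1a1 was 0.62 (0.12). The correlations of Col3a1 with the other 9 genes all lay below 0 over all arrays, between -0.54 and -0.12, and without the 2 farthest arrays those with Col1a1 (0.33) and Lum (0.11) were above 0. Col3a1 and Col1a1, which are commonly expressed together in fibroblasts, had an r of -0.12 (exact permutation p = 0.777, adjusted p = 0.832) and a rho of -0.24 (exact permutation p = 0.567, adjusted p = 0.672). Dcn varied with Islr, with an r of 0.70 (exact permutation p = 0.00167, adjusted p = 0.0375) and a rho of 0.73 (exact permutation p = 0.0233, adjusted p = 0.108), and r was 0.60 without the 2 farthest arrays. The r of 0.68 between Dcn and Lum (exact permutation p = 0.0643, adjusted p = 0.25; rho 0.65, exact permutation p = 0.0654, adjusted p = 0.173) rested on 2 arrays, without which it was 0.12. Of the 45 pairs, 2 had an adjusted Pearson p under 0.05 and 0 an adjusted Spearman p under 0.05, of which the lowest was 0.0594 by exact permutation.

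The 10 genes were then set against the leptomeningeal markers, of which none is among them. With the mean of the 30 markers, Fmod had an r of 0.90 over the 10 arrays (exact permutation p = 0.00354, adjusted p = 0.0177 over the 10 genes) and a rho of 0.94 (exact permutation p = 0.000903, adjusted p = 0.00521). Ogn had an r of 0.83 (exact permutation p = 0.000417, adjusted p = 0.00417) and a rho of 0.88 (exact permutation p = 0.00104, adjusted p = 0.00521). Islr (r 0.85, rho 0.78), Slc22a6 (r 0.84, rho 0.93) and Col1a2 (r 0.79, rho 0.85) also passed, with adjusted exact permutation p-values of 0.0269, 0.0328 and 0.0211 for r and of 0.0219, 0.0119 and 0.0119 for rho. Without the 2 arrays farthest from the median of the marker mean, r stayed between 0.60 and 0.94 for these 5 genes.

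The remaining 5 genes did not pass by r. Col1a1 had an r of 0.71 (exact permutation p = 0.0783, adjusted p = 0.112; rho 0.68, adjusted p = 0.119) and Igf2 an r of 0.68 (exact permutation p = 0.0374, adjusted p = 0.0623), though Igf2 passed by rho (0.82, adjusted exact permutation p = 0.0119). Dcn (r 0.42, rho 0.35, adjusted exact permutation p = 0.149 for r and 0.294 for rho) and Lum (r 0.29, rho 0.14, adjusted exact permutation p = 0.39 for r and 0.703 for rho), the 2 genes with the largest increase, had the weakest positive relation with the markers, and Col3a1 had an r of -0.47 (adjusted exact permutation p = 0.261; rho -0.52, adjusted p = 0.273). Of the 16 lists compared in this way, Dcn had its highest correlation with the mean of the genes of activated fibroblasts. That r was 0.88 (adjusted exact permutation p = 0.0271), and the r with mural cells was next at 0.77 (adjusted exact permutation p = 0.106). Acta2 and Tagln are in both of these lists, so the 2 means are not separate. Islr (r 0.66, rho 0.84) and Slc22a6 (r 0.73, rho 0.67) also varied with the mural cell mean. Their adjusted exact permutation p-values were 0.108 and 0.0424 for r and 0.0229 and 0.033 for rho. Without the 2 arrays farthest from the median of the mural cell mean, r was 0.63 for Islr but only 0.35 for Slc22a6. Of the same lists, Col3a1 had its highest r with the pineal markers (0.82, adjusted exact permutation p = 0.0646). Red blood cell markers (r 0.78, adjusted exact permutation p = 0.1625) and other collagen chains (r 0.77, adjusted exact permutation p = 0.115) came next. Which cells the Col3a1 values come from was not tested. The p-values of these comparisons were not adjusted over the lists and are given as a description.

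**Figure D4:**
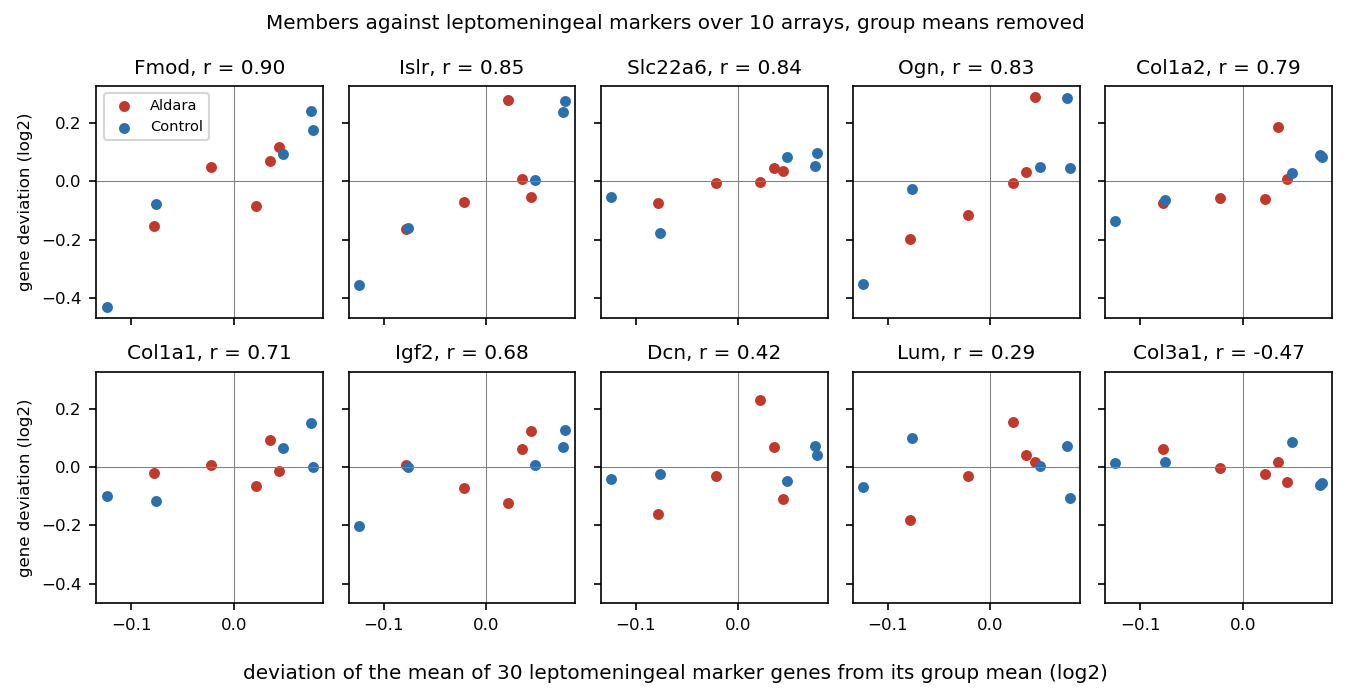
Deviation of each of the 10 genes from its group mean (vertical axis, log2) against that of the mean of 30 leptomeningeal markers (horizontal axis, log2) over 10 arrays, with Aldara arrays in red and control arrays in blue, ordered by Pearson r. Fmod, at 0.90, follows the markers most closely, and Dcn (0.42), Lum (0.29) and Col3a1 (-0.47) the least.

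Outside the set, the genes most like it were named by their mean correlation with the 10 genes, over 21779 other probesets with 1 symbol. The first 10 were Trub1 (0.58), Foxd1 (0.58), Slc13a4 (0.57), Smim4 (0.57), Osr1 (0.56), Slc6a13 (0.56), Aebp1 (0.56), Txndc11 (0.55), Cttn (0.55) and Slc7a11 (0.54). Of these, 5 are among the 30 leptomeningeal markers: the transcription factor genes Foxd1 and Osr1, the sulphate transporter gene Slc13a4, the GABA transporter gene Slc6a13 and the matrix protein gene Aebp1. Over all 30 markers the median of this measure was 0.44, against -0.00485 over all probesets, and 15 of the 30 reached its 99th percentile of 0.44. Foxd1, Slc13a4, Osr1, Slc6a13 and Aebp1 did not pass the test between groups, with differences of 0.01, 0.06, 0.10, -0.17 and 0.06, and neither did Txndc11 (-0.05) and Cttn (-0.05). Slc7a11, the cystine transporter gene, was 0.65 higher in Aldara-treated mice (adjusted p = 2.7e-05 from limma), while Trub1, which encodes a pseudouridine synthase, was 0.11 lower (adjusted p = 0.0185) and Smim4 was 0.19 lower (adjusted p = 0.00285).

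Between groups, 9 of the 30 leptomeningeal markers rose in Aldara-treated mice, 0 fell and 21 did not pass, and the median difference was 0.06. The largest increases were those of Itih2, a hyaluronan-binding inhibitor chain, with a mean of 8.30 in Aldara-treated mice and 7.67 in control mice (difference 0.63), Nupr1, a stress-response gene (8.73 and 8.11, difference 0.62), and Mgp, matrix Gla protein (8.64 and 8.09, difference 0.55). The others were the dicarboxylate transporter gene Slc13a3 (0.51), Aldh1a2 (0.40), which makes retinoic acid, the fibulin genes Efemp1 (0.30) and Fbln1 (0.24), the gap junction gene Gjb2 (0.23) and Serpind1 (0.17), which encodes a heparin cofactor. On the lower side 0 passed by limma, and 2 (Slc6a13 and Bmp6) had an unadjusted p under 0.05; with arrays brought to the same median 3 passed as lower.

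Of 12 other small leucine-rich proteoglycan genes that were measured, 1 rose, that of biglycan, and 1 fell, and the median difference was -0.04. Bgn, which encodes biglycan and is the closest relative of decorin, averaged 9.71 ± 0.0584 in Aldara-treated mice and 9.10 ± 0.118 in control mice (SD, n = 5 each), a difference of 0.61 (standard error 0.053, adjusted p = 3.91e-06 from limma). Prelp, which encodes prolargin, was 0.13 lower (adjusted p = 0.0101). On the mouse genome (GRCm38.p6), Dcn and Lum lie next to each other with Kera and Epyc beyond Lum. Kera and Epyc, which encode the related keratocan and epiphycan, had differences of -0.01 and -0.08 and did not pass. Ogn lies beside Omd, Aspn and Ecm2, none of which passed (-0.000709, 0.09 and 0.00287), and Fmod lies beside Prelp.

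Of the 38 other collagen chains, all were measured, 2 rose and 8 fell, with a median difference of -0.08. The share that fell was that of all tested probesets, 21%, and the share that rose was below their 12.4%. Both that rose, Col4a1 (8.12 in Aldara-treated mice and 7.81 in control mice, difference 0.32) and Col4a2 (8.20 and 8.08, difference 0.12), are chains of type IV collagen, the network of basement membranes. The largest decreases were those of Col6a1 (-0.26), a chain of the beaded filaments of type VI collagen, Col17a1 (-0.19), a transmembrane collagen of epithelia, and Col24a1 (-0.17). Col5a2, a fibrillar chain whose gene lies beside Col3a1, had a difference of 0.01 (adjusted p = 0.871 from limma). The count of chains that fell depended on the scaling, and was 24 with arrays brought to the same median and 4 with the median difference set to 0.

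Of 26 measured genes for enzymes and chaperones that modify collagen, 11 rose and 3 fell, with a median difference of 0.05. P4ha3 (0.46) and P4ha1 (0.35), catalytic subunits of prolyl hydroxylase, and Plod1 (0.46), a lysyl hydroxylase, led the increases. Adamts3 (-0.24), which cuts the amino-terminal propeptide of procollagen, P3h3 (-0.21) and Pcolce2 (-0.16), an enhancer of carboxyl-terminal processing, fell. Of 17 genes of activated fibroblasts, 8 rose and 1 fell, with a median of 0.14. Tgfbi, a matrix protein gene induced by transforming growth factor beta, averaged 11.10 in Aldara-treated mice and 8.05 in control mice (difference 3.05), Timp1, an inhibitor of metalloproteinases, 8.29 and 6.98 (difference 1.31) and Fn1, fibronectin, 10.74 and 9.66 (difference 1.08). Ccn1 was 0.25 lower. Macrophages and endothelial cells also express Tgfbi, Timp1 and Fn1.

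In the insulin-like growth factor system around Igf2, 2 of 18 measured genes rose and 3 fell (8 with arrays brought to the same median), with a median of -0.02. Igfbp7, a binding protein gene of vascular endothelium, averaged 11.72 in Aldara-treated mice and 10.58 in control mice (difference 1.14) and Igfbp2 was 0.23 higher, while the ligand gene Igf1 (-0.19), its receptor gene Igf1r (-0.13) and the protease gene Pappa (-0.13) were lower. Igf2r, the clearance receptor of Igf2, had a difference of -0.00388 (adjusted p = 0.947 from limma). Of 17 other Slc22 genes, 1 rose (Slc22a2, 0.12) and 5 fell (0 and 8 with arrays brought to the same median), among them Slc22a17 (-0.22), Slc22a5 (-0.13) and Slc22a12 (-0.12), with a median of -0.06. Slc22a8, which encodes OAT3 and lies beside Slc22a6, had a difference of -0.13 (adjusted p = 0.159).

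**Figure D5:**
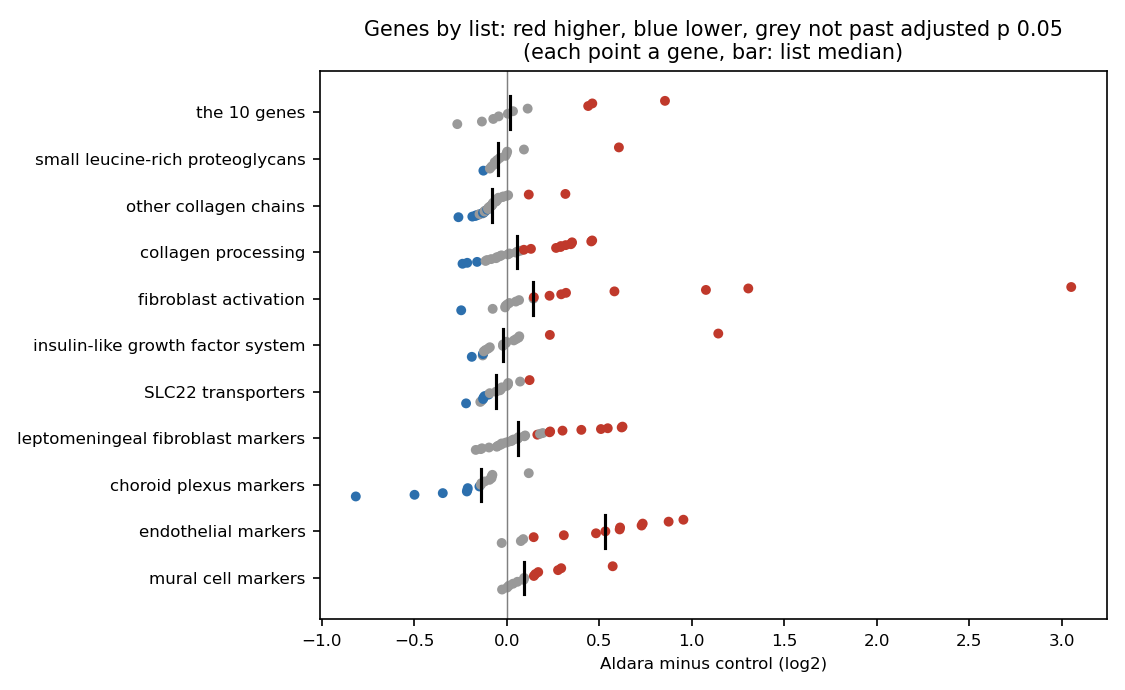
Difference in mean log2 value, Aldara minus control (horizontal axis), of every measured gene in the 10 genes and in 10 lists (rows), with 1 point per gene; red is higher and blue lower at an adjusted p under 0.05 from limma, grey is neither, and the black bar is the median of the row. The endothelial markers lie furthest to the right, with a median of 0.53, and the choroid plexus markers furthest to the left, with a median of -0.14.

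Markers of other cells that touch the meninges and vessels moved as well. Of 13 endothelial markers 10 rose and 0 fell, with a median of 0.53, led by Pecam1 (0.96), Cdh5 (0.88) and Emcn (0.74). Their mean value lay between 9.41 and 9.53 in Aldara-treated mice and between 8.96 and 9.07 in control mice. Of 13 mural cell markers 6 rose, 0 fell and 7 did not pass, with a median of 0.09. The increases were led by Anpep (0.57), Acta2 (0.29) and Vtn (0.28), while Pdgfrb (0.06) and Rgs5 (0.09) were among those that did not pass. The mean of the 13 markers lay between 8.26 and 8.33 in Aldara-treated mice and between 8.12 and 8.18 in control mice. These lists separated the groups as Dcn, Lum and Islr did. With group means removed, the endothelial mean had an r of 0.10 with Dcn, 0.12 with Lum and 0.32 with Islr. The mural cell mean had an r of 0.77 with Dcn, 0.37 with Lum and 0.66 with Islr. The part of these cells in those 3 increases was not tested.

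Choroid plexus epithelium, the other main source of Igf2, went the other way. Of 15 markers 0 rose and 7 fell (4 with the median difference set to 0), led by Ttr (12.31 in Aldara-treated mice and 13.13 in control mice, difference -0.82), Kl (-0.50) and Clic6 (-0.35), and the mean of the list lay between 7.83 and 7.96 in Aldara-treated mice and between 7.97 and 8.19 in control mice. With group means removed, Igf2 had an r of 0.15 with the mean of this list (adjusted exact permutation p = 0.915). The part of the choroid plexus in the values of Igf2 was not tested. Among 10 markers of the macrophages of the meninges and perivascular spaces, 2 rose (Stab1, 1.01, and Siglec1, 0.85) and 3 fell (Cbr2, -0.27, Cd163, -0.20, and Lyve1, -0.15). Of all tested probesets, 12.4% were higher and 21% lower, and the median difference over these 10 markers was -0.05. The mean of that list lay between 6.73 and 6.80 in Aldara-treated mice and between 6.62 and 6.71 in control mice.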

How the data were processed

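RNA from 10 perfused brains was hybridised to Affymetrix GeneChip Mouse Gene 1.0 ST arrays. The deposited values are on the log2 scale, and the authors made them by RMA (background correction, quantile normalisation and a summary over the probes of a probeset) in GeneSpring GX. The version of GeneSpring GX is not given in the sources used here, and neither are batches. Scanner values were not used here. Mice are the replicates, and their number limits the precision.

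Symbols follow GEO's annotation of the array and may be outdated. There were 28856 probesets, 21789 with 1 symbol, 1621 with several and 5446 with none, and 21698 of those with 1 symbol were matched by Entrez identifier. No filter on low values was used. On the 23410 probesets with a symbol, Aldara and control arrays were tested by limma 3.58.1 (lmFit, eBayes, no covariate) in R 4.3.3, with Benjamini-Hochberg adjustment over all of them. For lists, the probeset with the highest mean stood for a gene, and only probesets with 1 symbol were used. The counts of every list stand beside the shares of all tested probesets, 12.4% higher and 21% lower.

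Correlations are of deviations from group means, with exact permutation within groups (14400 orders). Tests were checked on simulated data. The genes and lists were chosen with earlier results of these data known. All 10 genes are named, with up to 3 genes higher and 3 lower of each list by size and the 10 genes most alike. Further genes are named where all that passed are given, or as neighbours or relatives of the 10, and the promoters of Ogn and Fmod were chosen, after their values were seen. Alternatives were 3 scalings, other sets of probesets, other variance models, the methods' t-test, a replicate block and each array left out, and the leptomeningeal marker mean as a covariate was added after seeing the data.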

Additional observations from a re-analysis of the deposited data

Results flagged for a closer look

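In groups of 5 arrays, 1 array stood far from the other 4 in 3 of 120 groups tested over the 10 genes and the genes named from the lists, where chance alone gives about 5%. None of the 10 genes was among them. Timp1 read 8.80 in Aldara replicate 5, against 8.07 to 8.26 in the other Aldara arrays. Col17a1 read 6.96 in the same array, against 7.10 to 7.15 in the other Aldara arrays. Cdh5 read 8.52 in control replicate 4, against 8.62 to 8.64 in the other control arrays.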

How the results depend on the processing

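The same 3 genes stayed higher in every alternative in which they were tested, except Islr with the leptomeningeal marker mean as a covariate (0.1235) and Lum, which fell outside the test when probesets below the median level were dropped. Leaving out 1 array each gave 3 to 3 genes higher and 0 to 2 lower, against 0 lower, with 1 lower without Aldara replicate 1 and 2 without control replicate 1 or control replicate 2. The genes lower numbered 2 with centred arrays, 1 with quantile normalisation, 1 among the brighter probesets, 4 with the marker mean as a covariate and 2 with it centred within groups. Centring the covariate within groups leaves every difference unchanged and alters only the standard errors. The median over the 10 genes was -0.1498 with the uncentred marker mean as a covariate, and -0.009316 to 0.03869 with 1 array left out. Of all probesets, 2653 to 2926 were higher and 4119 to 4772 lower with 1 array left out. Centred arrays gave 2299 higher and 9606 lower, the median difference set to 0 gave 3833 and 2760, and the covariate gave 1975 and 2853, against 2901 and 4926. The sign turned for Col3a1 (-0.01383) and Igf2 (-0.04139) with centred arrays, for Ogn (-0.1778) and Igf2 (-0.1218) with the covariate, and for Igf2 without Aldara replicate 1 (-0.00851), Aldara replicate 4 (-0.02443) or control replicate 1 (-0.04372). The causes were not tested. The adjusted p ranged from 1.96e-07 to 0.000106 for Dcn, from 2.61e-05 to 0.00552 for Lum and from 0.000619 to 0.412 for Islr. The median correlation between the genes was 0.2873 to 0.5203 with 1 array left out and 0.2424 to 0.4713 otherwise. Of 672 recomputed counts of list members, 602 lay within 1.5 times of those given. Counts of lower genes ranged from 3 to 24 for other collagen chains (8 given), 3 to 7 for collagen processing (3), 0 to 2 for activated fibroblasts (1), 0 to 3 for proteoglycans (1), 1 to 8 for the insulin-like growth factor system (3), 1 to 8 for Slc22 genes (5), 0 to 3 for leptomeningeal markers (0), 3 to 11 for choroid plexus (7), 0 to 4 for border macrophages (3), 1 to 6 for bone (4), 0 to 7 for muscle (1), 0 to 3 for pineal (1), 0 to 1 for pituitary (0) and 0 to 1 for red blood cells (0). Those of higher genes ranged from 3 to 9 for activated fibroblasts (8), 2 to 6 for mural cells (6), 1 to 3 for border macrophages (2), 0 to 2 for other collagen chains (2) and 0 to 2 for Slc22 genes (1).

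The arrays were treated as unpaired, as in the unpaired t tests of the methods. Same-numbered arrays correlated at -0.11 to 0.25 in their deviations, which cannot exclude a pairing or a shared batch. Aldara replicates 1 and 2 correlated best with the control array of the same number, and the other Aldara arrays did not. With the number as a replicate block, 3 of the 10 genes were higher and 0 lower, their median was 0.02059, 2701 probesets were higher and 4421 lower, and the median correlation was 0.4713.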

Other observations

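Genes of tissues that adjoin the brain in the skull were looked up as well, since they also hold collagen and fibroblasts. Of 8 measured markers of bone and cartilage, 0 were higher and 4 lower in Aldara-treated mice, with a median difference of -0.13 on the log2 scale. Alpl, the alkaline phosphatase of mineralising cells, was lower by 0.23, Sp7, an osteoblast transcription factor gene, by 0.21 and Acan, which encodes aggrecan of cartilage and of perineuronal nets, by 0.18. Of 10 skeletal muscle markers, 1 was lower (Actn3, by 0.15) and 0 were higher. Of 6 pineal markers, 1 was lower (Pde6b, by 0.10) and 0 were higher. None of 9 pituitary markers and none of 3 markers of red blood cells passed in either direction by limma, and 0 of them had an unadjusted p under 0.05. Aldara replicate 4 read highest for the pituitary hormone genes Prl, at 7.58 against 5.50 to 6.34 on the other Aldara arrays and 5.50 to 6.46 on the control arrays, and Pomc, at 8.62 against 7.03 to 7.95 on the other Aldara arrays and 7.18 to 7.39 on the control arrays. The same array was the highest for Ogn and Igf2. With group means removed, the mean of the 9 pituitary markers had an r of 0.30 with Ogn and 0.36 with Igf2 (each adjusted exact permutation p = 0.786). The part of adjoining tissue in those values was not tested.

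The neighbours of Islr on the mouse genome (GRCm38.p6) are Stra6, the retinol transporter gene, and Islr2, its closest relative. Stra6 was higher in Aldara-treated mice by 0.49 (adjusted p = 6.89e-05 from limma), and Islr2 had a difference of -0.09 (adjusted p = 0.179).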
